A study of Mus musculus with 4 samples.

Results

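The genotype-dependent part of the response to 4-hydroxytamoxifen (4-OHT) was measured as a difference between 2 effects in mouse MLL-AF9 bone marrow leukaemic cells. The effect of 4-OHT over vehicle in Meis1f/f cells had the effect of 4-OHT over vehicle in control cells subtracted from it, gene by gene, on log2(FPKM + 1). FPKM is a density of sequenced fragments scaled to transcript length and to the size of the library, and the added 1 FPKM makes the scale understate the changes of low genes. Of 22072 gene symbols in the deposited tables, 10922 reached 1 FPKM in at least 1 library and had a usable value in all of them, and these were compared. A gene was called when the difference of the effects was 1 or more in size. That size is a description of these libraries and no test, because each group holds 1 library and nothing measures the spread between replicates.

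The 4 groups were Meis1f/f cells given 4-OHT, Meis1f/f cells given vehicle, control cells given 4-OHT and control cells given vehicle. Meis1f/f cells had the genotype Meis1f/fCreER+/- MLL-AF9-/+ and control cells the genotype MLL-AF9-/+, so that every group carried the fusion and the labels name no CreER in control cells. The strain was C57BL/6 throughout, and the 4-OHT dose was 1000 nM for 24 h. Cells grew with SCF, IL-3, GM-CSF and IL-6 at 10 ng/ml each, and the serum is given as 20% in one place of the labels and as 10% in another. CreER is a recombinase that 4-OHT brings into the nucleus, where it cuts out DNA between loxP sites, here in Meis1. The labels do not give the promoter that drives CreER, the floxed exon or the number of cell lines or animals. Vehicle-treated Meis1f/f cells carried CreER as well. The activation of CreER by 4-OHT and the deletion of Meis1 came together in treated Meis1f/f cells and cannot be told apart.

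MLL-AF9 is a fusion of a histone methyltransferase with a transcription elongation partner, and it keeps HOXA genes and Meis1 active in myeloid progenitors. Meis1 is a TALE homeodomain factor that binds DNA with HOX and PBX partners, and Hlf, a PAR bZIP factor, is known as a gene downstream of it in blood stem cells. A difference of effects holds both genotypes and both treatments at once, so a shift in any of the 4 libraries moves it by that whole shift. For each called gene the library that carries the difference was therefore named. It is the library whose leaving out brings the other 3 closest together, provided that those 3 then span under 50% of the difference and that the library lies outside their range.

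The difference of the effects was 1 or more in size for 627 genes, which is 5.74% of those compared. It was higher in Meis1f/f cells for 231 genes (2.11%) and lower for 396 genes (3.63%). Rescaling every library by its upper quartile gave 178 higher and 487 lower genes, against the 231 and 396 at the deposited scale. The median over all genes was 0.06, with quartiles of -0.28 and 0.35. In its 2 components, 427 genes (3.91%) had a 4-OHT effect of 1 or more in size in Meis1f/f cells, 178 higher (1.63%) and 249 lower (2.28%). In control cells 246 genes (2.25%) had one, 150 higher (1.37%) and 96 lower (0.879%). Of the 627 called genes, 236 (37.6%) passed that size in Meis1f/f cells only and 100 (15.9%) in control cells only. A further 276 (44%) passed it in neither genotype, their difference being the sum of smaller effects of opposite sign. For 11 genes (1.75%) both effects passed the size in opposite directions.

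Most called genes had a single carrying library. It was Meis1f/f 4-OHT for 113 genes (18.0%), Meis1f/f vehicle for 230 (36.7%), control 4-OHT for 68 (10.8%) and control vehicle for 107 (17.1%). No single library carried the remaining 109 (17.4%), of which 40 had a 4-OHT effect past the size in Meis1f/f cells and 20 in control cells. Among all genes compared, called or not, the library standing apart from the other 3 was Meis1f/f 4-OHT for 15.7%, Meis1f/f vehicle for 42.4%, control 4-OHT for 14.9% and control vehicle for 27.0%. The count over all genes named a library for every gene and set no limit on the span of the other 3. The count of called genes did set that limit, so shares and order cannot be compared directly between the counts. Vehicle-treated Meis1f/f cells led in each count taken by itself.

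**Figure D1:**
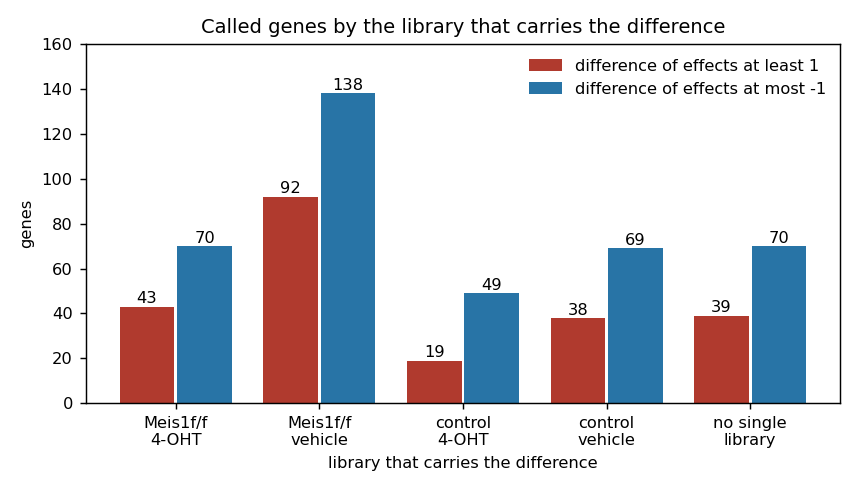
Number of called genes (vertical axis) by the library that carries the difference of the effects (horizontal axis), with red bars for a difference of at least 1 and blue bars for one of at most -1. The Meis1f/f vehicle library carries 92 higher and 138 lower genes, and lower genes outnumber higher ones in each class.

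**Figure D2:**
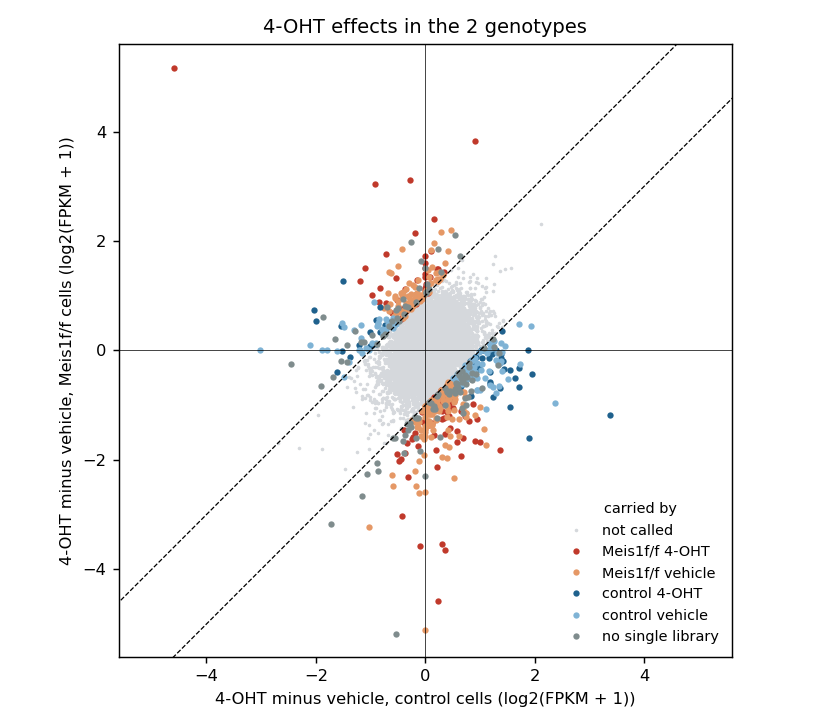
The 4-OHT effect of each gene in Meis1f/f cells (vertical axis) against that in control cells (horizontal axis), both as log2(FPKM + 1) of 4-OHT minus vehicle, with dashed lines at a difference of 1 in size and called genes coloured by the carrying library. Genes carried by a Meis1f/f library spread along the vertical axis and genes carried by a control library along the horizontal one, and the point at the upper left is Snord19, a small nucleolar RNA listed at 0 in the Meis1f/f vehicle and control 4-OHT libraries.

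The vehicle library of Meis1f/f cells was also set apart technically. Its table names lane 1, whereas the tables of the other 3 libraries name lane 2, so lane and library cannot be told apart. It was the deepest. The totals estimated from the deposited coverage were about 19600000 reads in Meis1f/f 4-OHT and 46000000 in Meis1f/f vehicle, against 23900000 in control 4-OHT and 30700000 in control vehicle. It also differed by transcript length. Across genes, Spearman's rho between length and a library's log2 level relative to the other 3 was 0.26 in Meis1f/f vehicle, against -0.10 in Meis1f/f 4-OHT, -0.11 in control 4-OHT and -0.15 in control vehicle. The difference of the effects had a rho of -0.26 with length, the 4-OHT effect in Meis1f/f cells -0.24 and that in control cells 0.05. The genes are not independent replicates, so these are descriptions. Genes called higher were shorter (median 1774 bases) and genes called lower longer (median 2871.5 bases) than all genes compared (median 2642 bases). Among genes with a carrying library the gap was widest for control vehicle, at 1840 bases for higher and 3599 bases for lower genes. The part of length, depth and lane in the called genes was not tested, and with the length trend removed 503 of the 627 genes were still called in the same direction.

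**Figure D3:**
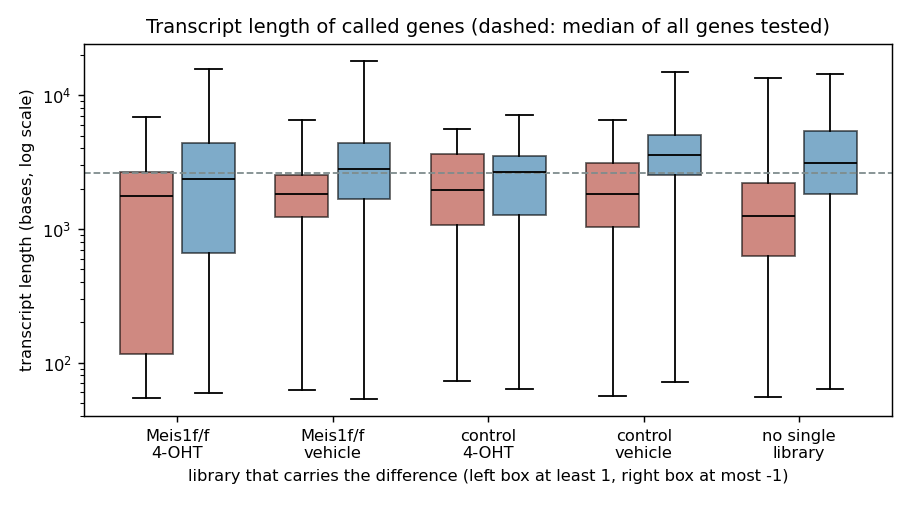
Transcript length in bases (vertical axis, log scale) of called genes by carrying library, with red boxes for a difference of at least 1 and blue boxes for one of at most -1; boxes span the quartiles, the inner line is the median, whiskers reach the lowest and highest value, and the dashed line is the median of all genes, 2642 bases. In every class the median length is lower for higher genes than for lower genes, 1840 against 3599 bases for those carried by control vehicle.

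A called value also depends on which transcript stood for a gene. With all transcripts of a symbol summed, 492 of the 627 genes kept a difference of 1 or more in the same direction. Among the 422 called genes with a single transcript nothing could change, whereas among the 205 with several only 70 held. Counting error was small beside the differences: its standard error had a median of 0.123 over called genes, and 582 of the 627 exceeded 2 such errors. Reads were not collapsed by molecule, so that error covers counting only, and the spread between cultures is not in it. Of the called genes 225 stayed under 5 FPKM in every library, and 72 were under 200 bases long. The loci of Cd34, Hspa8, Scd2 and Timp3 overlap another entry of the tables, and since the strandedness of the counting is not known their reads are uncertain.

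The targeted gene was checked first. Meis1 stood at 7.38 FPKM in Meis1f/f 4-OHT and 11.8 in Meis1f/f vehicle, against 12.1 in control 4-OHT and 11.6 in control vehicle. The Meis1f/f 4-OHT library was thus the one apart, and the other 3 lay between 11.6 and 12.1 FPKM. The effect was -0.61 in Meis1f/f cells and 0.06 in control cells, a difference of -0.67, and -0.80 with transcripts summed, so Meis1 was not called. A gene-level value also counts exons outside a deletion, and how complete recombination was cannot be read from it. Hlf stood at 0.160 FPKM in Meis1f/f 4-OHT and 0.370 in Meis1f/f vehicle, against 0.531 in control 4-OHT and 0.516 in control vehicle, under the 1 FPKM minimum everywhere.

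The 8 markers listed for the labelled cells were above 1 FPKM in all 4 libraries, Cd34 being the lowest at 2.01 FPKM in control 4-OHT. Mpo, the myeloperoxidase of primary granules, ranged over the libraries between 710 and 1280 FPKM, Ptprc (CD45) between 45.1 and 62.8, Itgam (CD11b) between 32.5 and 63.0, Hoxa9 between 12.2 and 31.3, Sfpi1 (PU.1) between 128 and 151 and Kit between 5.07 and 9.62. Of 24 lymphoid genes with a value, 12, among them Cd3e, Pax5 and Rag1, were under 0.1 FPKM in every library, and 5 reached 1 FPKM. The summed lymphoid level was 74.2 FPKM in Meis1f/f 4-OHT and 76.0 in Meis1f/f vehicle, against 79.9 in control 4-OHT and 93.4 in control vehicle, most of it Nkg7, which is also in the primary granule list, with 58.5 FPKM in Meis1f/f 4-OHT and 55.9 in Meis1f/f vehicle, against 71.6 in control 4-OHT and 84.1 in control vehicle.

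Genes carried by the Meis1f/f 4-OHT library had 3 libraries close together and the treated Meis1f/f cells apart. Under the rule for naming genes (5 FPKM in a library, a difference that held with transcripts summed, and an assigned gene name), 37 of the 113 qualified, 28 lower and 9 higher. The lowest was Thbs1, the secreted matrix protein thrombospondin 1, at 20.8 FPKM in Meis1f/f 4-OHT and 521 in Meis1f/f vehicle, against 427 in control 4-OHT and 362 in control vehicle. Only the treated Meis1f/f library was low, and the difference was -4.82 (counting SE 0.030). Samd5, a protein with a SAM domain, had 0.143 FPKM in Meis1f/f 4-OHT and 12.6 in Meis1f/f vehicle, against 3.83 in control 4-OHT and 4.19 in control vehicle (difference -3.47). Here the Meis1f/f vehicle library was also above both control libraries. Bpil2, of the family of bactericidal/permeability-increasing proteins, had 0.559 FPKM in Meis1f/f 4-OHT and 11.7 in Meis1f/f vehicle, against 8.16 in control 4-OHT and 11.4 in control vehicle (difference -2.59).

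Genes of sugar, lipid and sterol metabolism were among those 28 lower genes. Aldoc, the aldolase C isoform of glycolysis, stood at 12.7 FPKM in Meis1f/f 4-OHT and 58.9 in Meis1f/f vehicle, against 38.1 in control 4-OHT and 32.8 in control vehicle (difference -2.33). Scd1, which puts the double bond into stearic acid, stood at 19 FPKM in Meis1f/f 4-OHT and 46.7 in Meis1f/f vehicle, against 52.9 in control 4-OHT and 42.6 in control vehicle (difference -1.56). Its isoform Scd2 had a difference of -1.06. For both desaturases the treated Meis1f/f library was the lowest and the treated control library the highest. Insig1, the endoplasmic reticulum protein that retains the SREBP escort SCAP, had 35.5 FPKM in Meis1f/f 4-OHT and 72.6 in Meis1f/f vehicle, against 72.3 in control 4-OHT and 53.8 in control vehicle (difference -1.43). Hsd17b7, an enzyme of cholesterol synthesis, had a difference of -1.38. Selenbp1 and Selenbp2, near-identical copies whose reads cannot be separated with certainty, had -2.58 and -2.27. The remaining lower ones included Ero1l (-1.57), the oxidase that remakes disulphide bonds in the endoplasmic reticulum, Eif4ebp1 (-1.46), an inhibitor of cap-dependent translation, and the inflammasome sensor Nlrp3 (-1.55).

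The higher genes carried by this library included several at low levels in the other 3. Rbp4, the carrier of retinol in plasma, had 21.6 FPKM in Meis1f/f 4-OHT and 1.76 in Meis1f/f vehicle, against 0.324 in control 4-OHT and 1.52 in control vehicle (difference 3.96). Fscn1, the actin-bundling protein of mature dendritic cells, had 22.8 FPKM in Meis1f/f 4-OHT and 1.74 in Meis1f/f vehicle, against 0.769 in control 4-OHT and 1.14 in control vehicle (difference 3.39). In both genes a single library was above 2 FPKM. Amd1, the decarboxylase that supplies polyamine synthesis, had 20.5 FPKM in Meis1f/f 4-OHT and 0.505 in Meis1f/f vehicle, against 2.13 in control 4-OHT and 0.661 in control vehicle (difference 2.92). Its locus overlaps that of its copy Amd2 in the tables, so its reads are uncertain. Cacnb3, a calcium channel subunit, had 5.18 FPKM in Meis1f/f 4-OHT and 0.400 in Meis1f/f vehicle, against 0.327 in control 4-OHT and 0.504 in control vehicle (difference 2.32). The chemokine Ccl5 had 9.84 FPKM in Meis1f/f 4-OHT and 1.06 in Meis1f/f vehicle, against 1.49 in control 4-OHT and 1.22 in control vehicle, a difference of 2.23 with a larger counting SE of 0.330. The chemokine Ccl2 (1.27) and the proton-sensing receptor Gpr65 (1.26) followed the same form.

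**Figure D4:**
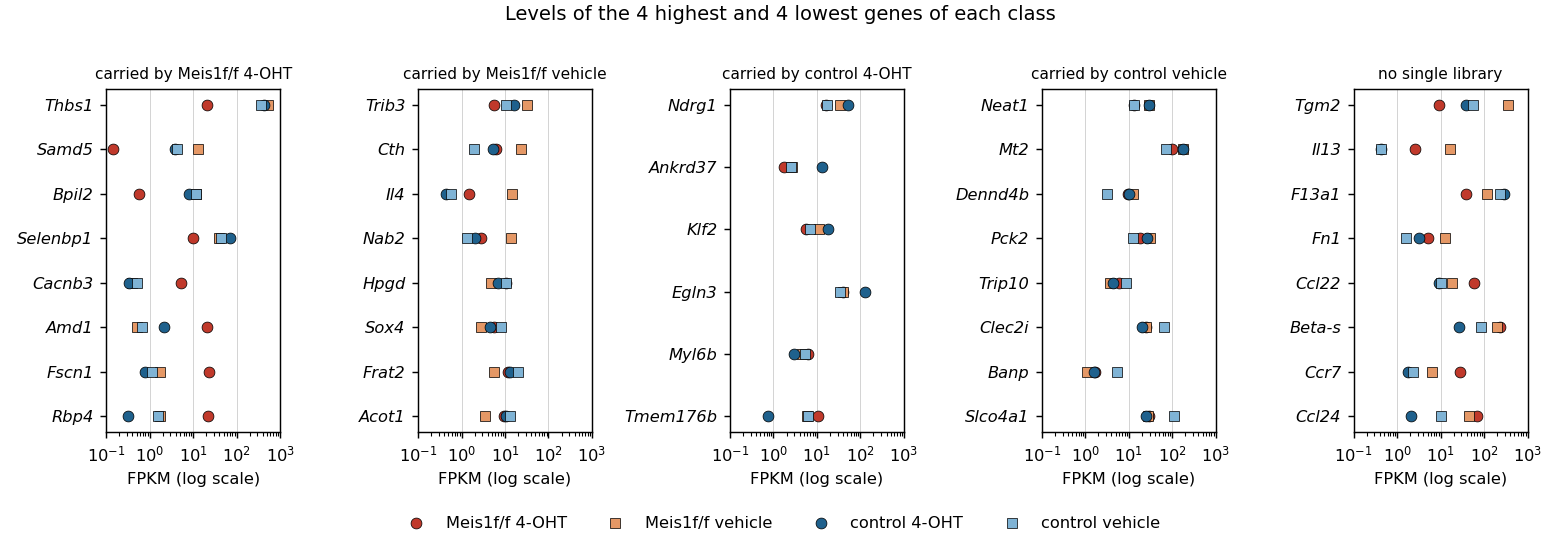
FPKM in each library (horizontal axis, log scale) of the named genes with the highest and lowest differences in each class of carrying library, up to 4 each way. In the first panel the Meis1f/f 4-OHT point lies away from the other 3, as for Thbs1 at 20.8 FPKM. In the last panel no 3 points lie close enough together to meet the rule for a carrying library, as for Ccl24.

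The Meis1f/f vehicle library carried 126 genes that could be named, 53 higher and 73 lower. A lower difference here means that vehicle-treated Meis1f/f cells were high and the other 3 libraries closer together. Trib3, a pseudokinase induced by amino acid shortage, had 5.68 FPKM in Meis1f/f 4-OHT and 32.5 in Meis1f/f vehicle, against 15.8 in control 4-OHT and 10.6 in control vehicle (difference -2.85). Cth, which makes cysteine from cystathionine, had 6.23 FPKM in Meis1f/f 4-OHT and 22.9 in Meis1f/f vehicle, against 5.32 in control 4-OHT and 1.94 in control vehicle (difference -2.83). Its effect was -1.73 in Meis1f/f cells and 1.11 in control cells, opposite and both past the size. Hmox1, haem oxygenase 1, had 32.7 FPKM in Meis1f/f 4-OHT and 188 in Meis1f/f vehicle, against 40.8 in control 4-OHT and 61.7 in control vehicle (difference -1.90). The treated Meis1f/f library was here close to the treated control library and only the vehicle Meis1f/f library was high. The same form held for Il1rn, the interleukin 1 receptor antagonist, with 7.87 FPKM in Meis1f/f 4-OHT and 48.2 in Meis1f/f vehicle, against 12.1 in control 4-OHT and 13.9 in control vehicle (difference -2.29). Il4, a type 2 cytokine, had 1.504 FPKM in Meis1f/f 4-OHT and 14.3 in Meis1f/f vehicle, against 0.442 in control 4-OHT and 0.571 in control vehicle (difference -2.49, counting SE 0.327). Nab2, a co-repressor of EGR factors whose locus overlaps Stat6, had a difference of -2.36.

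For higher differences the vehicle library of Meis1f/f cells was the low one. Gfi1, a repressor of transcription in early granulocytes, had 47.0 FPKM in Meis1f/f 4-OHT and 15.6 in Meis1f/f vehicle, against 37.5 in control 4-OHT and 34.6 in control vehicle (difference 1.41). Lmo2, an adaptor of haematopoietic transcription complexes, had 68.5 FPKM in Meis1f/f 4-OHT and 24.1 in Meis1f/f vehicle, against 57.3 in control 4-OHT and 55.1 in control vehicle (difference 1.41). Gfi1 and Lmo2 thus differed little among the treated Meis1f/f and both control libraries. Gfi1b, the relative of Gfi1 that acts in erythroid and megakaryocytic cells, went the other way, with 5.48 FPKM in Meis1f/f 4-OHT and 18.3 in Meis1f/f vehicle, against 2.996 in control 4-OHT and 3.12 in control vehicle (difference -1.53). Acot1, a thioesterase of acyl-CoA, had 9.33 FPKM in Meis1f/f 4-OHT and 3.38 in Meis1f/f vehicle, against 10.3 in control 4-OHT and 12.9 in control vehicle (difference 1.54). Frat2, an inhibitor of GSK3, had 1.54, Hpgd, which breaks down prostaglandins, 1.52, and Sox4, a transcription factor of progenitors, 1.52. Sox4 was near the limit of the rule for a carrying library, with 5.50 FPKM in Meis1f/f 4-OHT and 2.81 in Meis1f/f vehicle, against 4.44 in control 4-OHT and 8.20 in control vehicle. More genes carried by Meis1f/f vehicle were near the 50% limit. The other libraries spanned a share of 0.472 of the difference for Hmox1, 0.465 for Trib3 and 0.460 for Cth. That share was 0.458 for Hmgcs1 and 0.454 for Gfi1b.

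The control 4-OHT library carried the fewest genes, and 11 could be named, 9 lower and 2 higher. All 9 lower ones had treated control cells high, and 5 of them (Ndrg1, Ankrd37, Egln3, Vegfa and Slc2a1) are in the list of targets of hypoxia-inducible factor (HIF), the transcription factor that is stable when oxygen is short. Ndrg1, a stress-response protein, had 16.5 FPKM in Meis1f/f 4-OHT and 34.8 in Meis1f/f vehicle, against 51.3 in control 4-OHT and 16.9 in control vehicle (difference -2.58). Its effect was -1.03 in Meis1f/f cells and 1.55 in control cells. Egln3, a prolyl hydroxylase that marks HIF for destruction, had 39.6 FPKM in Meis1f/f 4-OHT and 39.3 in Meis1f/f vehicle, against 128 in control 4-OHT and 34.1 in control vehicle (difference -1.86, counting SE 0.048). The other 3 libraries lay between 34.1 and 39.6 FPKM, and the effect in Meis1f/f cells was 0.01. Ankrd37, an ankyrin repeat protein, had 1.73 FPKM in Meis1f/f 4-OHT and 2.68 in Meis1f/f vehicle, against 12.8 in control 4-OHT and 2.56 in control vehicle (difference -2.39). Slc2a1, the glucose transporter GLUT1, had 36.9 FPKM in Meis1f/f 4-OHT and 28.6 in Meis1f/f vehicle, against 96.0 in control 4-OHT and 35.6 in control vehicle (difference -1.05). Vegfa, the endothelial growth factor, had a difference of -1.57. The others were Klf2 (-2.09), a zinc finger factor, Cercam (-1.09), Plod1 (-1.06), a lysyl hydroxylase of collagen, and Sqle (-1.08), the squalene epoxidase. Tmem176b, a membrane protein of myeloid cells, was the opposite, at 10.4 FPKM in Meis1f/f 4-OHT and 5.87 in Meis1f/f vehicle, against 0.742 in control 4-OHT and 6.17 in control vehicle. Its difference was 2.78, and 1.47 with transcripts summed. Myl6b, a myosin light chain, had 1.13.

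Stretches of promoter are shown for 4 of these HIF targets, because their values rest on the same library, as a view of the core letters ACGTG or GCGTG to which HIF is known to bind, on either strand and printed in capitals. They come from RefSeq windows of 250 bases before to 50 after the gene start, on GRCm38.p6. The window of Vegfa, which the same library carried, also holds the core and is not shown, and Ndrg1 has no window.
Egln3 (chr12:54204079-54204123, minus strand): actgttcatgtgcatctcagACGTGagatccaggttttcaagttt
Slc2a1 (chr4:119108664-119108733, plus strand): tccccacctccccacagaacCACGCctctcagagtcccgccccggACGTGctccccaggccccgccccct
Ankrd37 (chr8:45999851-45999970, minus strand): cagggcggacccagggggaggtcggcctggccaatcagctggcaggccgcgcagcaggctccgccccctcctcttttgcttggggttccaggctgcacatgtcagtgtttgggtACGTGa
P4ha2 (chr11:54100797-54100879, plus strand): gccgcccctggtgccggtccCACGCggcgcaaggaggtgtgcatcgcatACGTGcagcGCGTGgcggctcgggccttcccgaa
P4ha2, a prolyl hydroxylase of collagen, is the sixth listed HIF target that the control 4-OHT library carried, at 0.368 FPKM in Meis1f/f 4-OHT and 0.906 in Meis1f/f vehicle, against 2.34 in control 4-OHT and 1.03 in control vehicle (difference -1.19). The core is common: 68.4% of the 8643 compared genes with a window hold it (5913 genes), as do 11 of 11 called and 11 of 12 uncalled members of the list with a window. A match is a description, not a site or a cause.

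The control vehicle library carried 53 genes that could be named, 16 higher and 37 lower. Slco4a1, a transporter of organic anions, had 29.99 FPKM in Meis1f/f 4-OHT and 27.9 in Meis1f/f vehicle, against 24.7 in control 4-OHT and 110 in control vehicle (difference 2.21). Clec2i, a C-type lectin, had 24.5 FPKM in Meis1f/f 4-OHT and 24.6 in Meis1f/f vehicle, against 20.0 in control 4-OHT and 63.3 in control vehicle (difference 1.61). In both genes vehicle-treated control cells alone were high. Banp, a nuclear matrix protein, had 1.69, and Trip10, an adaptor of CDC42, had 1.43. Id2, an inhibitor of helix-loop-helix factors, had 92.7 FPKM in Meis1f/f 4-OHT and 96.3 in Meis1f/f vehicle, against 61.4 in control 4-OHT and 24.0 in control vehicle (difference -1.37). Its effect of -0.05 in Meis1f/f cells left nearly the whole difference to control cells. The other libraries spanned a share of 0.468 of that difference, near the limit for a carrying library. Mt2, a metallothionein, had 101 FPKM in Meis1f/f 4-OHT and 173 in Meis1f/f vehicle, against 174 in control 4-OHT and 70.7 in control vehicle (difference -2.06). Neat1, the long noncoding RNA of paraspeckles, had 13.3 FPKM in Meis1f/f 4-OHT and 29.0 in Meis1f/f vehicle, against 29.4 in control 4-OHT and 13.04 in control vehicle. Its effects were -1.07 in Meis1f/f cells and 1.11 in control cells, a crossing in which pairs of libraries were nearly equal, so that the assignment to control vehicle met the rule only just. Dennd4b (-1.79), Pck2 (-1.72), the mitochondrial PEP carboxykinase, Sdc3 (-1.54), a syndecan, Fasn (-1.05), fatty acid synthase, and Cenpf (-1.06), a kinetochore protein, were lower. The 53 genes had a median length of 3599 bases, against 2642 bases over all genes.

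No single library carried 62 of the genes that could be named, 20 higher and 42 lower. Tgm2, tissue transglutaminase, had 8.98 FPKM in Meis1f/f 4-OHT and 363 in Meis1f/f vehicle, against 38.2 in control 4-OHT and 56.1 in control vehicle (difference -4.64, counting SE 0.061). The 2 Meis1f/f libraries lay below and above both control libraries. Il13, a type 2 cytokine, had 2.51 FPKM in Meis1f/f 4-OHT and 16.1 in Meis1f/f vehicle, against 0.419 in control 4-OHT and 0.418 in control vehicle (difference -2.29). F13a1, the A chain of clotting factor XIII, had 37.5 FPKM in Meis1f/f 4-OHT and 115 in Meis1f/f vehicle, against 284 in control 4-OHT and 237 in control vehicle (difference -1.85). Fn1, fibronectin, had a difference of -1.83, Slc7a11, the cystine transporter, -1.51 and Hdc, which makes histamine, -1.43. Ccl24, an attractant of eosinophils, had 68.1 FPKM in Meis1f/f 4-OHT and 44.3 in Meis1f/f vehicle, against 2.11 in control 4-OHT and 10.4 in control vehicle (difference 2.49). Ccr7, the receptor that guides dendritic cells to lymph nodes, had 28.0 FPKM in Meis1f/f 4-OHT and 6.33 in Meis1f/f vehicle, against 1.74 in control 4-OHT and 2.30 in control vehicle (difference 2.25). For both of these genes each Meis1f/f library was above each control library. The chemokine Ccl22 had 1.72 and Beta-s, a beta globin, had 1.86. Genes just inside the size of 1 were Ahsa1, Nxt1 and Spr at 1.01 and Timp3, Lars and Nfyb at -1.0015, -1.002 and -1.01. Just outside were Tbc1d10c, Snrnp48 and Chordc1 at 0.997, 0.995 and 0.995, and Tmem154, Trim24 and Tsc22d3 at -0.9996, -0.998 and -0.998.

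Gene lists were described by how many measured members were called, beside the 2.11% and 3.63% over all genes, and by their median difference, beside the 0.06 over all genes. Over all genes the library standing apart was Meis1f/f vehicle for 42.4% and control vehicle for 27.0%. It was Meis1f/f 4-OHT for 15.7% and control 4-OHT for 14.9%. Of the 28 members of the HIF list compared, 14 were lower and none was higher, with a median of -0.96 (-0.70 with a pseudocount of 5). The median effect was -0.26 in Meis1f/f cells and 0.59 in control cells. Control 4-OHT carried 6 of the 14 and was the library standing apart for 14 of the 28 members. Meis1f/f vehicle carried 3 (Stc2, Slc2a3 and Bhlhe40), Meis1f/f 4-OHT 2 (Ero1l and Fam162a) and control vehicle 1 (Ddit4). Bnip3, a mitophagy receptor, and Slc16a3, the lactate exporter, were carried by none. Bnip3 had 41.3 FPKM in Meis1f/f 4-OHT and 70.0 in Meis1f/f vehicle, against 260 in control 4-OHT and 145 in control vehicle (difference -1.58), so both control libraries were above both Meis1f/f libraries. The list's summed level was 837 FPKM in Meis1f/f 4-OHT and 1293 in Meis1f/f vehicle, against 1889 in control 4-OHT and 1203 in control vehicle. Glycolysis enzymes, several of which HIF also controls, had a median of -0.46 with 2 lower (Aldoc and Pfkm) and 1 higher (Eno3) of 23. Pfkm and Eno3 had differences of only -0.17 and 0.30 with transcripts summed, which leaves Aldoc.

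The list of ATF4 targets and the unfolded protein response had 13 lower and no higher members of 34. Its median was -0.63 (-0.40 with a pseudocount of 5). ATF4 is the factor whose translation rises when amino acids are short or the endoplasmic reticulum is stressed. The list's median effect was -0.63 in Meis1f/f cells and 0.16 in control cells. Meis1f/f vehicle carried 9 of the 13, against 36.7% of all called genes. It stood apart for 19 of the 34, against 42.4% of all genes compared. Asns, asparagine synthetase, had 66.6 FPKM in Meis1f/f 4-OHT and 132 in Meis1f/f vehicle, against 85.9 in control 4-OHT and 53.2 in control vehicle (difference -1.66). Slc7a5 and Slc3a2, the chains of a transporter of large amino acids, had -1.47 and -1.24. Atf5 (-1.46), Gpt2 (-1.40) and the arginine transporter Slc7a1 (-1.15) were lower too. In these genes, too, the Meis1f/f vehicle library was the high one. Xbp1 and Sdf2l1, which belong to the unfolded protein response, had 0.68 and 0.50 and were not called. Stc2 (-2.08) is in this list and in the HIF list, and Slc7a11 is in this list and in that of NRF2 targets.

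The C/EBP-ATF composite element, TGATGNAAN on either strand, lay in the window of 6 of the 11 called list members that have one, and is printed in capitals for those 6 because their differences shared a direction. It lay in 3 of 20 uncalled members, in 23 of 436 called genes (5.28%) and in 240 of 8643 genes (2.78%). The list was put together from known targets, so its share is no test, and a match is not a site or a cause.
Trib3 (chr2:152344028-152344057, minus strand): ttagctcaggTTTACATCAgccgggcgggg
Asns (chr6:7693210-7693252, minus strand): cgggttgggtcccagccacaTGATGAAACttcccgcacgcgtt
Slc7a11 (chr3:50443633-50443699, minus strand): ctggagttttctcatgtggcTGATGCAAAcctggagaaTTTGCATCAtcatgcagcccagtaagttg
Nupr1 (chr7:126625553-126625601, minus strand): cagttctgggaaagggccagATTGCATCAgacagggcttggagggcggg
Vldlr (chr19:27216799-27216847, plus strand): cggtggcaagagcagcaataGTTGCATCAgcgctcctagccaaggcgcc
Pck2 (chr14:55540142-55540190, plus strand): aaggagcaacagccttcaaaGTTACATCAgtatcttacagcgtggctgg
These 6 were not carried by the same library. Trib3 and Asns were carried by Meis1f/f vehicle, Nupr1 and Vldlr by Meis1f/f 4-OHT and Pck2 by control vehicle, and Slc7a11 by none. Nupr1, a small stress protein, had 3.75 FPKM in Meis1f/f 4-OHT and 16.7 in Meis1f/f vehicle, against 10.1 in control 4-OHT and 14.9 in control vehicle (difference -1.39). Vldlr, a lipoprotein receptor, had a difference of -1.26 at levels of at most 1.33 FPKM.

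Cholesterol synthesis and SREBP2 targets had 6 lower and no higher members of 26, with a median of -0.60 (-0.48 with a pseudocount of 5). The list's median effects were -0.34 in Meis1f/f cells and 0.24 in control cells. SREBP2 is the factor that switches on sterol synthesis and uptake when membranes lack cholesterol. Hmgcs1, which makes HMG-CoA, had 20.0 FPKM in Meis1f/f 4-OHT and 61.1 in Meis1f/f vehicle, against 38.8 in control 4-OHT and 28.1 in control vehicle (difference -2.02). Hmgcs1 has 2 entries with equal levels, and these values are for 1 of them. Summed, they were 40.0 FPKM in Meis1f/f 4-OHT and 122 in Meis1f/f vehicle, against 77.7 in control 4-OHT and 56.2 in control vehicle (difference -2.05). The 4-OHT library was below the vehicle library in Meis1f/f cells and above it in control cells. Meis1f/f 4-OHT carried 3 of the 6, Insig1 and Hsd17b7 among them, Meis1f/f vehicle 2 and control 4-OHT 1 (Sqle). The sterol element letters TCACNCCAC lay in the window of Hmgcs1, 1 of 3 called members with a window, in 0 of 15 uncalled ones and in 1.34% of all windows. It is shown with the element in capitals, as a description and not as a site or a cause.
Hmgcs1 (chr13:119690194-119690242, plus strand): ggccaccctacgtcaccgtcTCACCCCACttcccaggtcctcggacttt
Fatty acid synthesis and LXR targets had 4 lower members of 19 (Scd1, Abca1, Scd2 and Fasn), with a median of -0.43. NRF2 targets, genes of the oxidative stress response, had 5 lower of 25 with a median of only -0.01: besides Hmox1 these were Slc7a11, Srxn1 (-1.58), Osgin1 (-1.17) and Me1 (-1.01). Their median effect was -0.41 in Meis1f/f cells and -0.26 in control cells, both below 0.

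**Figure D5:**
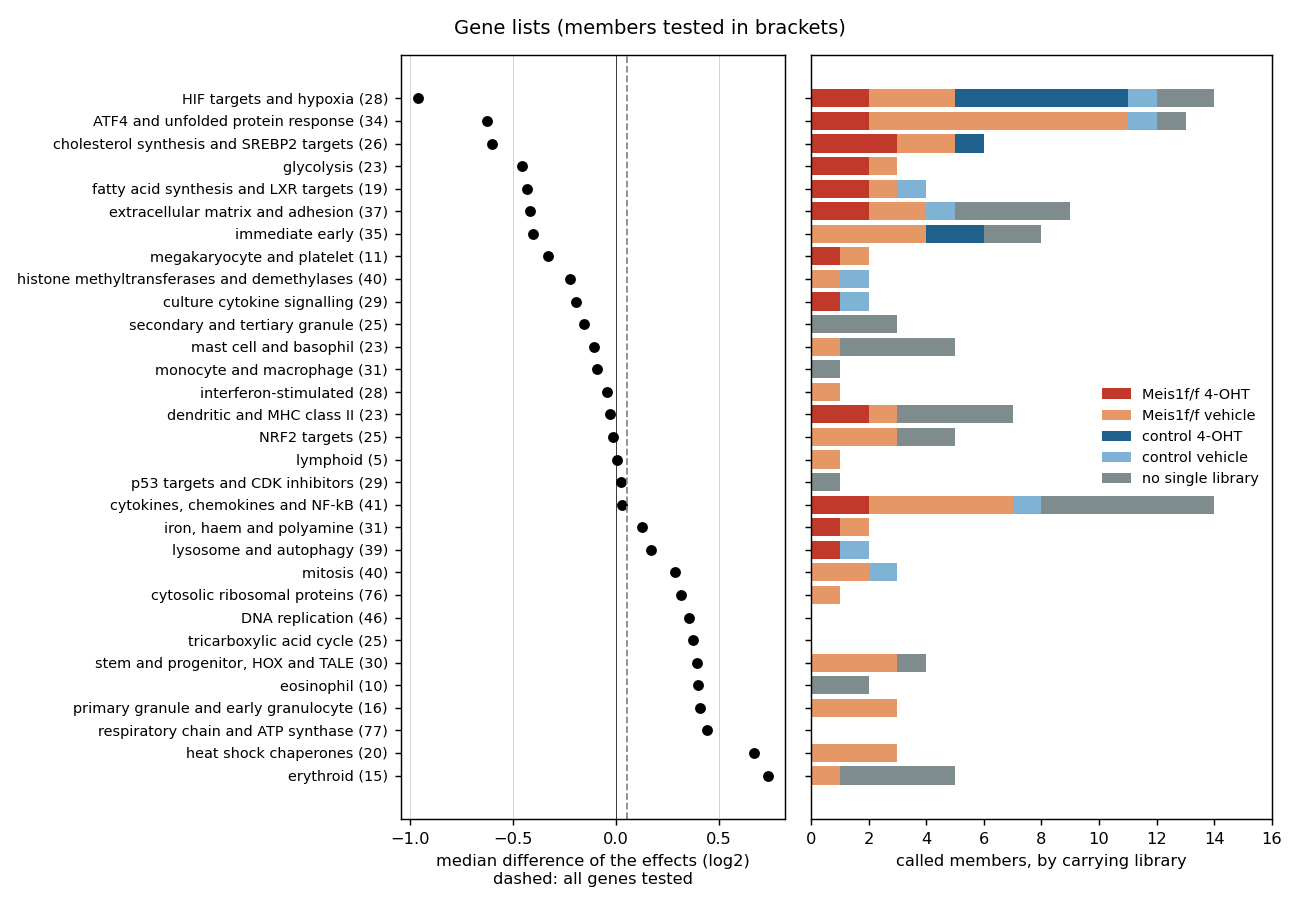
Median difference of the effects of each gene list (left, log2 scale, dashed line at the 0.06 of all genes compared) and number of called members by carrying library (right), with the number of members compared in brackets. HIF targets lie at -0.96 (-0.70 with a pseudocount of 5) and erythroid genes at 0.74 (0.33 with a pseudocount of 5). The respiratory chain, tricarboxylic acid cycle and DNA replication lists have no called member.

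Energy, replication and translation genes had small differences in the other direction. All 77 respiratory chain and ATP synthase genes were compared, none was called, and 75 lay above 0 with a median of 0.44. Uqcr11, a subunit of complex III, had the highest value of 0.94, at 141 FPKM in Meis1f/f 4-OHT and 85.1 in Meis1f/f vehicle, against 125 in control 4-OHT and 145 in control vehicle. Vehicle-treated Meis1f/f cells stood apart for 64 of the 77, and with the length trend removed the median was 0.22. The tricarboxylic acid cycle list had no called member of 25 and a median of 0.38, with Meis1f/f vehicle apart for 21, and DNA replication none of 46 and 0.36, with Meis1f/f vehicle apart for 36. For Idh3a, a subunit of the cycle's NAD-linked dehydrogenase, the levels were 63.6 FPKM in Meis1f/f 4-OHT and 37.6 in Meis1f/f vehicle, against 68.0 in control 4-OHT and 70.2 in control vehicle (difference 0.79). Cytosolic ribosomal protein genes behaved unlike these: 75 of 76 lay above 0 with a median of 0.32, but control vehicle stood apart for 57 of them and Meis1f/f vehicle for 15. Rpl39 had 1142 FPKM in Meis1f/f 4-OHT and 929 in Meis1f/f vehicle, against 967 in control 4-OHT and 1279 in control vehicle (difference 0.70). The median effect of the list was 0.11 in Meis1f/f cells and -0.23 in control cells, and its median difference was 0.07 with the length trend removed. Only Rpl34 was called (1.31), and its reads are shared with a pseudogene copy.

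Heat shock chaperones had 3 higher members of 20 and a median of 0.67 (0.53 with no minimum FPKM), and the 3 were carried by Meis1f/f vehicle. Hspa8, the constitutive HSP70, had 1377 FPKM in Meis1f/f 4-OHT and 719 in Meis1f/f vehicle, against 1308 in control 4-OHT and 1388 in control vehicle (difference 1.02). Fkbp4 (1.04) and Ahsa1 (1.01), which work with HSP90, had the same form, with Meis1f/f vehicle alone low. Mitosis genes had 2 higher and 1 lower of 40, but the higher ones, Bub1 and Ect2, had 0.56 and 0.62 with transcripts summed.

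Among the lists of blood lineage markers, the called share ran from 3.23% (monocyte and macrophage) to 33.3% (erythroid), against 5.74% over all genes. In bulk RNA fewer cells of a type and less RNA per cell cannot be told apart. Primary granule and early granulocyte genes had 3 higher members of 16 (Gfi1, Ms4a3 and Plac8), carried by Meis1f/f vehicle. Ms4a3, a marker of granulocyte and monocyte progenitors, had 685 FPKM in Meis1f/f 4-OHT and 281 in Meis1f/f vehicle, against 738 in control 4-OHT and 645 in control vehicle (difference 1.09). The summed level of that list was 9583 FPKM in Meis1f/f 4-OHT and 6444 in Meis1f/f vehicle, against 9644 in control 4-OHT and 8466 in control vehicle. Secondary and tertiary granule genes had 3 lower of 25, among them Retnlg (-1.35) and the gelatinase Mmp9 (-1.06), carried by no single library.

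Mast cell and basophil genes had 2 higher and 3 lower members of 23, with a median of -0.11 (-0.21 with a pseudocount of 5). Their summed level was 2633 FPKM in Meis1f/f 4-OHT and 3285 in Meis1f/f vehicle, against 536 in control 4-OHT and 595 in control vehicle. The Meis1f/f libraries were thus several times above the control libraries under both treatments. Hdc, Il4 and Il13 were lower, and Ms4a2 (1.04), a chain of the IgE receptor, and Ltc4s (1.26), the leukotriene C4 synthase, were higher. The part of such cells in the differences of Hdc, Il4, Il13 and Ccl24 was not tested. Eosinophil genes had 2 higher of 10 (Ear11 and Ccl24), with sums of 782 FPKM in Meis1f/f 4-OHT and 819 in Meis1f/f vehicle, against 252 in control 4-OHT and 357 in control vehicle.

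Dendritic and MHC class II genes had 6 higher and 1 lower of 23 with a median of -0.03. The higher ones (Fscn1, Cacnb3, Ccr7, Ccl22, Ccl17 and Cd83) are known from mature dendritic cells, and the lower one was Irf4 (-1.13). Other listed genes, among them Cd40, Cd80, Cd86 and Relb, were not called. Over the list 11 members lay above 0 and 12 below. Their summed level was 978 FPKM in Meis1f/f 4-OHT and 724 in Meis1f/f vehicle, against 511 in control 4-OHT and 363 in control vehicle. Siglech, of plasmacytoid dendritic cells, was under 0.1 FPKM in every library. Whether such cells took part in the higher differences was not tested. Erythroid genes had 5 higher of 15 and a median of 0.74, which was 0.61 with transcripts summed and 0.33 with a pseudocount of 5. Of the 5, Car1, a carbonic anhydrase, had 0.61 with transcripts summed. Beta-s had 226 FPKM in Meis1f/f 4-OHT and 195 in Meis1f/f vehicle, against 25.9 in control 4-OHT and 83.2 in control vehicle, and the lowest library was the treated control one. Hbb-b1 (1.32) and Hba-a1 (1.28) followed it, and globin copies share reads. The summed erythroid level was 646 FPKM in Meis1f/f 4-OHT and 587 in Meis1f/f vehicle, against 322 in control 4-OHT and 364 in control vehicle. Monocyte and macrophage genes had 1 lower of 31 (F13a1) and a sum between 4134 and 4813 FPKM. Megakaryocyte and platelet genes had 2 lower of 11 (Thbs1 and Plek), and lymphoid genes 1 lower of 5 (Il2rb, at most 2.98 FPKM).

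Stem and progenitor, HOX and TALE genes had 3 higher and 1 lower of 30 and a median of 0.40. That median was 0.14 with a pseudocount of 5 and 0.19 with no minimum FPKM. The higher ones were Sox4, Lmo2 and Cd34, a surface protein of progenitors with 11.7 FPKM in Meis1f/f 4-OHT and 9.40 in Meis1f/f vehicle, against 2.01 in control 4-OHT and 4.91 in control vehicle (difference 1.26). The lower one was Gfi1b. Hoxa9, the HOX partner of Meis1, had 17.8 FPKM in Meis1f/f 4-OHT and 12.2 in Meis1f/f vehicle, against 27.1 in control 4-OHT and 31.3 in control vehicle. Its difference of 0.70 was under the size.

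Cytokines, chemokines and NF-kB genes had 8 higher and 6 lower of 41 with a median of 0.03. The lower ones were Il4, Il1rn, Il13, Cxcl3, Ptgs2 and Cxcl2, of which Meis1f/f vehicle carried 5 and no single library carried Il13. Cxcl3, an attractant of neutrophils, had 1.12 FPKM in Meis1f/f 4-OHT and 7.65 in Meis1f/f vehicle, against 1.18 in control 4-OHT and 1.37 in control vehicle (difference -1.91). The higher ones were Ccl24, Ccr7, Ccl5, Ccl12, Ccl22, Ccl2, Cxcl16 and Ccl17. Immediate early genes, the first to be transcribed after a stimulus, had 8 lower and no higher of 35. Their median was -0.40 (-0.26 with a pseudocount of 5). Meis1f/f vehicle carried Egr3, Trib1, Fosb and Fosl2, control 4-OHT carried Klf2 and Fosl1, and no single library carried Egr1 and Phlda1. Extracellular matrix and adhesion genes had 8 lower and 1 higher of 37, with Thbs1, Tgm2, Fn1, Sdc3, Sdc4 (-1.53), Itgal (-1.03) and Timp3 among the lower ones and Mmp25 (1.05) higher.

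The remaining lists lay near the share over all genes. Genes of culture cytokine signalling had 1 higher and 1 lower of 29, histone methyltransferases and demethylases 1 and 1 of 40, lysosome and autophagy 1 and 1 of 39, and iron, haem and polyamine genes 1 and 1 of 31. Interferon-stimulated genes had 1 lower of 28 and p53 targets with CDK inhibitors 1 higher of 29, Trp53inp1, which had -0.22 with transcripts summed. Among these, Kdm4a (-1.07), a demethylase of histone H3, and Wipi1 (-1.01), an autophagy protein, were carried by control vehicle, and Ehmt2 (1.04), a methyltransferase of histone H3, by Meis1f/f vehicle. With transcripts summed the calls of Ehmt2 (0.95), Stat5a (-0.35), Lipa (0.83) and Isg20 (-0.74) in these lists were lost.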

How the data were processed

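RNA of 4 mouse libraries, 1 library per group, was sequenced on Illumina machines, and per the labels nothing says that they came from separate cultures. FPKM values were deposited by the authors, as the file headers name them. The coverage signal, mean read depth per base, was deposited beside them. Bowtie and the mm8 build are named per the submitters' processing notes. Neither the tool that made FPKM nor the annotation and strandedness is given in the sources used here.

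Rows with a status other than OK in any library (394 of 28107) were left out, the row with the highest mean FPKM stood for each symbol, and genes needed 1 FPKM in at least 1 library. Effects and their difference were taken on log2(FPKM + 1), and a size of 1 was called. Library depth and counting standard errors came from the coverage at 42 bases per read, the step at which low genes pile up. They cover counting error only. Python 3.11.15, pandas 2.3.3, NumPy 2.4.6, SciPy 1.17.1 and matplotlib 3.10.9 were used. The code was run on simulated data with large shifts planted in 1 library per changed gene and counting noise alone. Those data held no length trend and no spread between cultures, so they check the computation and not the calls. No p-value was computed.

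Named were the 12 highest and 12 lowest genes, up to 4 in each direction per carrying library and for genes that none carries, up to 4 called members per list, the 3 nearest to the size on each side, and Meis1 and Hlf. Genes named needed 5 FPKM in a library and a difference that held with transcripts summed. Small RNAs, unnamed models and pseudogenes were left out. A few genes that the rule or the lists hold are not reported here. Other genes in the text were chosen after their values were seen. The members and the 31 lists were chosen with earlier results of these data known. Alternatives were pseudocounts of 0.1 and 5, no minimum and a minimum of 5 FPKM, summed transcripts, 2 rescalings, removal of the length trend over 20 bins of length and 2 other rules for the carrying library. RefSeq promoter windows (GRCm38.p6) were matched by accession and symbol: 10770 genes matched and 8643 had a window. Coordinates of the deposited tables were not used with them.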

Additional observations from a re-analysis of the deposited data

Results flagged for a closer look

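The 3 genes listed here that could be named had 4-OHT effects past 1 in size in opposite directions in the genotypes, a difference that was not tested because each group holds 1 library. Cth had a difference of effects of -2.83, with -1.73 in Meis1f/f cells and 1.11 in control cells. For Ndrg1 the difference was -2.58, with -1.03 in Meis1f/f cells and 1.55 in control cells. Neat1 showed -2.18, with -1.07 in Meis1f/f cells and 1.11 in control cells.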

How the results depend on the processing

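Among the genes named by the rule no called difference changed direction under the alternatives run. For summed transcripts the rule fixes this in advance, since it admits only called genes whose difference held with them. Outside the rule, with transcripts summed Trp53inp1 was -0.22 and Stat5a -0.35, against 1.23 and 1.06 for the transcript used. The medians of the cytokine, dendritic, interferon, lymphoid and p53 lists, all near 0, changed sign under some alternatives. At the deposited scale the difference of the effects called 231 higher and 396 lower genes, the effect in Meis1f/f cells 178 and 249, and the effect in control cells 150 and 96. Counts that moved by over 1.5 times were as follows. With a pseudocount of 0.1 the difference called 430 higher and 718 lower genes, the effect in Meis1f/f cells 423 and 433, the effect in control cells 479 and 203, and the carried counts were 173 for Meis1f/f 4-OHT, 110 for control 4-OHT, 225 for control vehicle and 296 for no single library. With a pseudocount of 5 the difference called 53 and 109, the effect in Meis1f/f cells 38 and 72, the effect in control cells 13 and 20, and the carried counts were 30 for Meis1f/f 4-OHT, 72 for Meis1f/f vehicle, 14 for control 4-OHT, 21 for control vehicle and 25 for no single library. A minimum of 5 FPKM gave 242 lower genes, 92 higher in the control effect, and carried counts of 61 for Meis1f/f 4-OHT, 30 for control 4-OHT and 71 for control vehicle, since fewer genes were compared. Summed transcripts left 63 lower genes in the control effect. Median-ratio rescaling left 114 higher genes in the Meis1f/f effect, and removal of the length trend left 99. With the other 3 libraries held within a stricter share of the difference, the carried counts were 46 for Meis1f/f 4-OHT, 132 for Meis1f/f vehicle, 33 for control 4-OHT and 41 for control vehicle, and 375 had none. Held within 1 on the log2 scale, 68 had none. The Meis1f/f vehicle library carried the most genes of the 4 under all of these alternatives.

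The 91 named genes include Meis1 and the genes just outside the size, which were not called. Of the called ones, 16 lost the call with the length trend removed, 27 with a pseudocount of 5, 6 with median-ratio and 7 with upper-quartile rescaling. Of the uncalled ones, 2 gained a call with the length trend removed, 6 with a pseudocount of 0.1, 1 with transcripts summed and 3 with each rescaling. The medians of 17 of 31 lists moved with the length trend removed, and those of 7 with a pseudocount of 5. The cause of these moves was not tested. No paired analysis was possible because each group holds 1 library, and leaving out a library leaves no difference to compute. Without replicates, no value here measures the spread between cultures. Low genes are limited by depth, 1 read on a transcript of 2 kb being worth between 0.0109 and 0.0255 FPKM.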

Other observations

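The lists in this section were put together after their members' values had been seen, so their counts describe those members only. Over all genes compared, 2.11% were called higher and 3.63% lower, with a median difference of 0.06. Amino acid transporters had 8 lower and no higher members of 25 compared, with a median of -0.57. Of the 8, Slc7a5, Slc3a2, Slc7a1 and Slc7a11 were already counted in the ATF4 list. Slc6a9, a glycine transporter, had 2.85 FPKM in Meis1f/f 4-OHT and 16.8 in Meis1f/f vehicle, against 1.84 in control 4-OHT and 2.25 in control vehicle (difference -2.01). Slc7a2, a carrier of cationic amino acids, had 8.80 FPKM in Meis1f/f 4-OHT and 18.5 in Meis1f/f vehicle, against 3.43 in control 4-OHT and 1.63 in control vehicle (difference -1.75). Vehicle-treated Meis1f/f cells were the highest in both, their library carried 4 of the 8, and no single library carried the other 4.

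HSP90 and its partner proteins had 6 higher and no lower members of 20, with a median of 0.70. Of the 6, Ahsa1 and Fkbp4 were already counted among the heat shock chaperones. Cacybp, a binding partner of Siah1 and S100 proteins, had 108 FPKM in Meis1f/f 4-OHT and 57.1 in Meis1f/f vehicle, against 100 in control 4-OHT and 121 in control vehicle (difference 1.18). Ppp5c, a phosphatase of the HSP90 complex, had 36.3 FPKM in Meis1f/f 4-OHT and 18.1 in Meis1f/f vehicle, against 38.9 in control 4-OHT and 40.6 in control vehicle (difference 1.03). All 6 were carried by Meis1f/f vehicle, which stood apart for 17 of the 20.

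Actin-bound and membrane skeleton proteins had 9 lower members and 1 higher (Fscn1, also counted in the dendritic list) of 23, with a median of -0.55. Myh9, a nonmuscle myosin heavy chain, had 102 FPKM in Meis1f/f 4-OHT and 186 in Meis1f/f vehicle, against 80.7 in control 4-OHT and 46.3 in control vehicle (difference -1.64). Tln1, talin 1, had 60.9 FPKM in Meis1f/f 4-OHT and 85.5 in Meis1f/f vehicle, against 54.5 in control 4-OHT and 29.2 in control vehicle (difference -1.36). In both the highest library was Meis1f/f vehicle and the lowest control vehicle. The members are long, with a median of 7359 bases, against 2642 bases over all genes compared, and the part of length in their differences was not tested.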
